A study of Mus musculus with 3 samples.

Results

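The cells described here are the Stra8-positive spermatogonia and preleptotene cells of the mouse testis, 337 of the 5023 cells in the deposited table. They were picked by a marker rule. The natural log values of 3 genes were averaged for each of 12 trios of genes, each average was converted to a z-score over all cells, and a cell belonged here if the trio Stra8, Crabp1 and Dmrt1 gave its highest score. These 337 cells are called Stra8 cells below, and cells of another trio are called by its first gene. The levels of the 3 genes therefore describe the choice and carry no test.

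The study lowered the long non-coding RNA Gm4665 in the living testis of ICR mice. Each testis was microinjected with an AAV9 virus that encodes a short hairpin RNA and red fluorescent protein (RFP). The opposite testes of an animal got the control hairpin (shCtrl) and a Gm4665 hairpin. The age on the labels is postnatal day 21 before microinjection. Somatic cells were removed and RFP-positive germ cells were sorted before 10x Genomics 3' single-cell sequencing, so all cells here passed a sort for the virus, and the share of any cell type can be set by that sort. There were 3 libraries: the control hairpin, hairpin 1 and hairpin 2, each of cells from 3 mice. Each group was 1 library with its mice pooled, so no comparison between them has a test, and a hairpin cannot be told apart from any other difference between the libraries. Ranges after a value are 95% intervals (exact Poisson for UMI sums, Clopper-Pearson for shares of cells) and cover counting error only.

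Spermatogonia divide by mitosis until retinoic acid, made from vitamin A in the seminiferous tubule, switches on Stra8. STRA8 is a transcription factor that germ cells need to leave the mitotic cycle and begin meiosis, and its RNA is known from differentiating spermatogonia and, at its height, from preleptotene spermatocytes in their last DNA replication. CRABP1 binds retinoic acid in the cytoplasm, and DMRT1 is a transcription factor that holds spermatogonia in the mitotic programme and restrains meiosis in mice.

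Stra8 lies on chromosome 6 (plus strand, chr6:34920163-34939344), Crabp1 on chromosome 9 (chr9:54764748-54773110) and Dmrt1 on chromosome 19 (chr19:25505618-25604329), in the GENCODE vM21 annotation of mm10. The Stra8 promoter is shown because retinoic acid receptors bind repeats of the hexamer AGGTCA, and the Prdm9 promoter because Prdm9, which marks the sites of meiotic recombination, differed between the libraries and holds the motif CNCCTCAG known for STRA8 in mouse. Each is the 250 bases before the RefSeq start site (GRCm38.p6), 5' to 3' on the strand of the gene. They span chr6:34920698-34920947 (plus) and chr17:15564355-15564604 (minus), and capitals mark the motif found. The Stra8 window lies inside the GENCODE span of the gene given above, since the 2 annotations differ on its start.
Stra8: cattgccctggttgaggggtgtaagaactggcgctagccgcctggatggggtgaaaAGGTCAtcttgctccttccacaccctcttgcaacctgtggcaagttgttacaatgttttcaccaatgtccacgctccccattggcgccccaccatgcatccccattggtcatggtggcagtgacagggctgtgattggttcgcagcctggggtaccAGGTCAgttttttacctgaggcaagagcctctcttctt
Prdm9: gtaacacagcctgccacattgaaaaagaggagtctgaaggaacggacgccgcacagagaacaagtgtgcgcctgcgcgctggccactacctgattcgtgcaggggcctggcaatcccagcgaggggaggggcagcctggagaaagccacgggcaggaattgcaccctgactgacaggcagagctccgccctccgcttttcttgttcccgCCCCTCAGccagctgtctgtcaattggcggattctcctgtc
Both motifs were searched on both strands. AGGTCA or its reverse complement stood at bases -194 and -38 before the Stra8 start and did not overlap, and 15.8% of 27025 mouse promoters held it at least once and 1.52% at least 2 times. The letters CNCCTCAG were not in this Stra8 window. In Prdm9 they began at base -41 of 1 of its RefSeq starts, and 7.39% of all promoters held them. A meiotic entry list of 36 genes was chosen with earlier results of these data known, and 28 of them had a promoter sequence. Of these 6 (21.4%) held CNCCTCAG, namely Rbm46, Prdm9, Hormad2, Syce2, Msh5 and Ugt8a. Among the genes compared below that had a promoter sequence, 9.07% held it. Of the differentiating spermatogonia list 3 of 12 held it, of the mitosis list 0 of 19 and of the immediate-early and heat shock list 6 of 11. Such matches describe the letters and are not binding sites.

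The choice was clear for most of the 337 cells. Their score for the trio had a median of 3.36 (0.261 to 6.98) and led the next trio by a median of 2.48. The lead was under 0.5 in 20 cells, the smallest being 0.0556, and 28 cells outside came within 0.5, the nearest by 0.00213. The mean ln value of the trio had a median of 0.742 in the 20 cells just inside and 0.275 in the 28 just outside. All 3 genes had a UMI (a counted RNA molecule) in 216 cells, 2 genes in 100 and 1 gene in 21. Stra8 itself had a UMI in 282 of the 337 cells, so the name does not hold for every cell, and in 124 of the 4686 other cells. For 236 cells the trio in the next place was that of Tex101, Gml2 and Sycp3, which marks early meiotic prophase, and 30 cells scored over 2 on their second trio. No doublet caller was run here and no cell was removed.

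The control library held 44 Stra8 cells, hairpin 1 held 131 and hairpin 2 held 162. The 3 libraries shared 5 to 7 cell barcodes pair by pair and 0 among the Stra8 cells. Summed UMIs of the Stra8 cells were 674083, 1772892 and 2341386, so 1 UMI was worth 1.48, 0.564 and 0.427 counts per 1000000 UMIs (CPM), and the control values are the least precise. Median UMIs per Stra8 cell were 14362, 13081 and 12955, and median genes detected were 4314, 4272 and 4256.5. The other cells were deeper in UMIs (medians 19652.5, 15200 and 17400) and had fewer genes (3528, 3257 and 3664). RNA of condensing spermatids was in every Stra8 cell: Prm1, the main protamine of sperm chromatin, had at least 52 UMIs in each, and 10 genes of that kind together stood at 29574, 22306 and 20801 CPM. Their part in the values below was not tested.

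In the control Stra8 cells Gm4665, the target of the hairpins, stood at 66.8 CPM (48.7 to 89.3). Hairpin 1 cells held 10.2 CPM (6.02 to 16.0) and hairpin 2 cells 24.3 (18.4 to 31.5). These are sums of 45, 18 and 57 UMIs, and they were 6.58 (3.73 to 12.1) and 2.74 (1.81 to 4.13) times lower than the control. At least 1 UMI was in 63.6%, 10.7% and 28.4% of the cells. The level was below that of all other cells together, which stood at 315, 54.8 and 82.2 CPM. Other germ cells had levels of this order: the Aurka cells stood at 64.7, 8.46 and 13.9 CPM. The Ssxb1 cells stood at 68.0, 12.1 and 20.8 CPM. The cells led by the leukocyte genes Cd52, Mzb1 and Lyz2 stood at 57.9, 10.7 and 10.2 CPM, so in the control and with hairpin 1 the level in Stra8 cells was near that of cells that are not germ cells. Gm4665 (chr9:115180404-115186058, minus strand) lies within Osbpl10 on the opposite strand, and no source used here gives the strand that was counted. Osbpl10 was at 34.1, 31.6 and 31.2 CPM in the Stra8 cells.

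The share of Stra8 cells was larger in each knockdown library than in the control. They were 3.1% of the control cells (2.26 to 4.14), 7.56% with hairpin 1 (6.36 to 8.91) and 8.65% with hairpin 2 (7.42 to 10.0). The interval of the control overlapped with neither of the others, while the hairpins overlapped with each other. Among cells whose top trio was one of the 10 germ cell trios the shares were 3.42%, 8.37% and 10.2%. A share is relative to the other cells that the sort let through, so more Stra8 cells and fewer cells of other kinds cannot be told apart.

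Stra8 itself helped to choose the cells, so its levels in the libraries are given as a description. Control cells held 1206 CPM (1125 to 1292), hairpin 1 cells 756 (716 to 797) and hairpin 2 cells 536 (506 to 566). The control cell in the middle of the order had 14 Stra8 UMIs (range 0 to 63), against 5 (0 to 47) and 4 (0 to 41). The ranges of single cells overlapped almost wholly, and the 5 cells with the most held 30.8% of the control UMIs and 14.9% and 15.1% with the hairpins. Stra8 was detected in 86.4%, 84.0% and 82.7% of the cells, and in 82.1%, 75.0% and 78.5% of the cells after thinning to 10000 UMIs, which kept 39, 96 and 130. The Cstl1 and Klk1b3 cells, in which the 10 condensing spermatid markers reached 233841 to 251106 CPM, had median depths of 20836, 16550.5 and 18933 UMIs, and 1.85%, 0.405% and 2.15% of them held a Stra8 UMI.

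**Figure D1:**
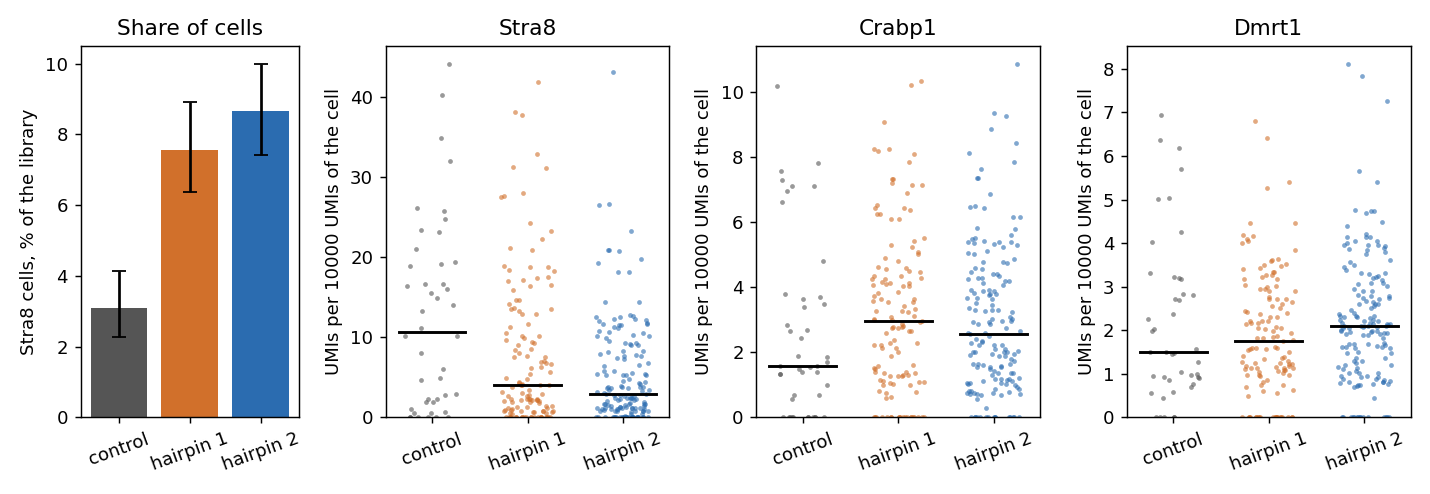
Left, Stra8 cells in percent of all cells of each library (bars, with 95% Clopper-Pearson intervals). Right, UMIs of Stra8, Crabp1 and Dmrt1 per 10000 UMIs of each Stra8 cell (points), with the median as a line. The share was 3.1% in the control and 7.56% and 8.65% with the hairpins, and the Stra8 medians were 10.6, 4.02 and 2.93.

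Crabp1 stood at 283 (245 to 327), 340 (314 to 368) and 301 (279 to 324) CPM in the control, hairpin 1 and hairpin 2 cells. Dmrt1 stood at 236 (201 to 276), 204 (183 to 226) and 227 (208 to 247) CPM. The median cell had 2, 4 and 4 Crabp1 UMIs and 2, 2 and 3 Dmrt1 UMIs. Outside the Stra8 cells all 3 genes were close to absent, at 0.327 to 2.03 CPM over all other cells. The Tex101 cells held 5.27 to 6.01 CPM of Stra8, and the Defb19 cells, led by Sertoli cell genes, held 14.8 CPM in the control.

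**Figure D2:**
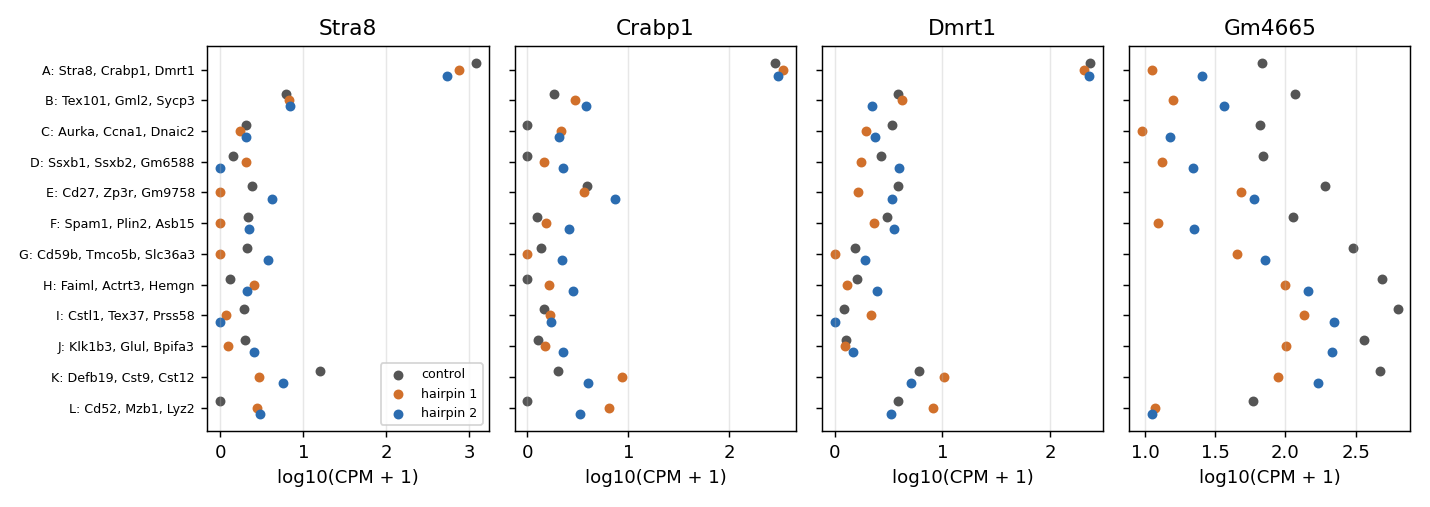
Level of Stra8, Crabp1, Dmrt1 and Gm4665 (log10 of CPM plus 1) in the cells of each of the 12 trios, one point per library. The trio genes stand far apart in their own cells, where Stra8 was at 1206, 756 and 536 CPM. Gm4665 was at 66.8, 10.2 and 24.3 CPM there and higher in most sets of spermatids.

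Many genes beside the trio marked the Stra8 cells. Of 8930 genes compared (a mean of at least 10 CPM over the libraries and at least 30 UMIs in the Stra8 cells), 4045 (45.3%) were at least 2-fold higher than in all other cells in each of the 3 libraries and 1631 (18.3%) were lower. Since the filter used the level in the Stra8 cells, it favoured higher genes, and since the cells were picked by their RNA, these folds are descriptions. Ranked by the smallest of the 3 folds, the first 15 were Auts2, Smagp, Map7d2, Zrsr2, Rhox13, Cited1, Pou3f1, Igfbp2, Sox4, Cdca7, Lonrf3, Rcor2, Hdac6, Gng13 and Uchl1. Pou3f1 encodes a transcription factor that acts in spermatogonial stem cells, Rhox13 a homeobox protein of differentiating spermatogonia, and Uchl1 a ubiquitin hydrolase used as a spermatogonial marker. Uchl1 stood at 678, 617 and 499 CPM, against 16.7, 11.2 and 12.8 in the other cells. Rhox13 stood at 208, 144 and 182 CPM against 1.59, 1.31 and 2.62, and Pou3f1 at 65.3, 84.6 and 57.2 against 0.176, 0.191 and 0.26.

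Against the 365 Tex101 cells, whose trio marks early meiotic prophase, 2273 genes (25.5%) were at least 2-fold higher in all 3 libraries and 630 (7.05%) lower. The Tex101 cells also held pachytene markers, at 2303, 2526 and 2364 CPM, against 524, 753 and 866 in Stra8 cells. The set may thus reach beyond early prophase. Sohlh1, a transcription factor needed for spermatogonial differentiation, stood at 174, 122 and 146 CPM against 0.811, 1.29 and 1.59. Mcm2, of the helicase that opens DNA for replication, stood at 108, 117 and 93.1 CPM against 1.22, 1.93 and 1.06, and Cenpa, the histone of centromeres, at 217, 219 and 350 against 4.06, 5.79 and 5.48. Lmo1, Smagp, Hist1h2ap, Pou3f1, Bex1 and Ccna2 were also among the first 10. Hist1h2ap belongs to a family of near-identical histone genes, so its reads may be shared. The 10 lower genes were Gml, Piwil1, Gml2, Cdc42ep3, Mtl5, Rnls, Id4, Psma8, Ttll8 and 4930524B15Rik. Gml2 belongs to the trio that picked the Tex101 cells, so its place among them describes the choice. Piwil1, the PIWI protein of pachytene piRNAs, stood at 11.9, 10.7 and 16.2 CPM against 476, 558 and 559. Id4, better known from spermatogonial stem cells, also stood lower here, at 10.4, 6.77 and 13.2 CPM against 182, 185 and 186.

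The X chromosome separated Stra8 cells from the Tex101 and Aurka cells. Meiotic prophase silences the X and Y chromosomes, a step known as meiotic sex chromosome inactivation. X-linked genes took 1.88%, 1.57% and 1.71% of the UMIs of Stra8 cells in the control, hairpin 1 and hairpin 2 libraries. The Tex101 cells held 0.636%, 0.397% and 0.495%, and the Aurka cells, whose trio includes pachytene markers, held 0.442%, 0.422% and 0.48%. All 3 libraries of Stra8 cells lay above all libraries of both these sets. Other trios had shares near those of Stra8 cells: the Cd59b cells held 1.89%, 1.61% and 1.86%, the Cstl1 cells 1.76%, 1.51% and 1.7%, and the Cd27 cells 1.46%, 1.26% and 1.41%. Of the 267 X-linked genes compared, 205 (76.8%) were at least 2-fold higher than in the Tex101 cells, where 25.5% of all genes were, and 187 (70.0%) than in all other cells, where 45.3% were. A list of 15 X-linked spermatogonial genes had 12 compared members, of which 11 were at least 2-fold higher than in the Tex101 cells. Taf7l, a germ cell subunit of the general transcription factor TFIID, stood at 358, 271 and 279 CPM against 19.9, 19.9 and 12. Usp26, a deubiquitinase, stood at 191, 194 and 265 CPM against 8.52, 12.9 and 11.5. The exception was Fthl17a, at 14.8, 10.7 and 16.2 against 14.2, 12.9 and 17.7 CPM. Of the Y-linked list 4 of 10 genes were compared (Eif2s3y, Ddx3y, Usp9y and Uba1y), and all 4 were at least 2-fold higher than in the Tex101 cells.

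Stra8 cells also held more RNA for ribosomal proteins, at 17.8%, 18.3% and 17.9% of UMIs, against 4.63%, 5.7% and 7.6% in all other cells. Mitochondrial transcripts took 4.8%, 4.99% and 4.52% of their UMIs against 0.449%, 0.655% and 0.92%. The leukocyte cells held still more for ribosomal proteins, at 24.4% to 32.0%.

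**Figure D3:**
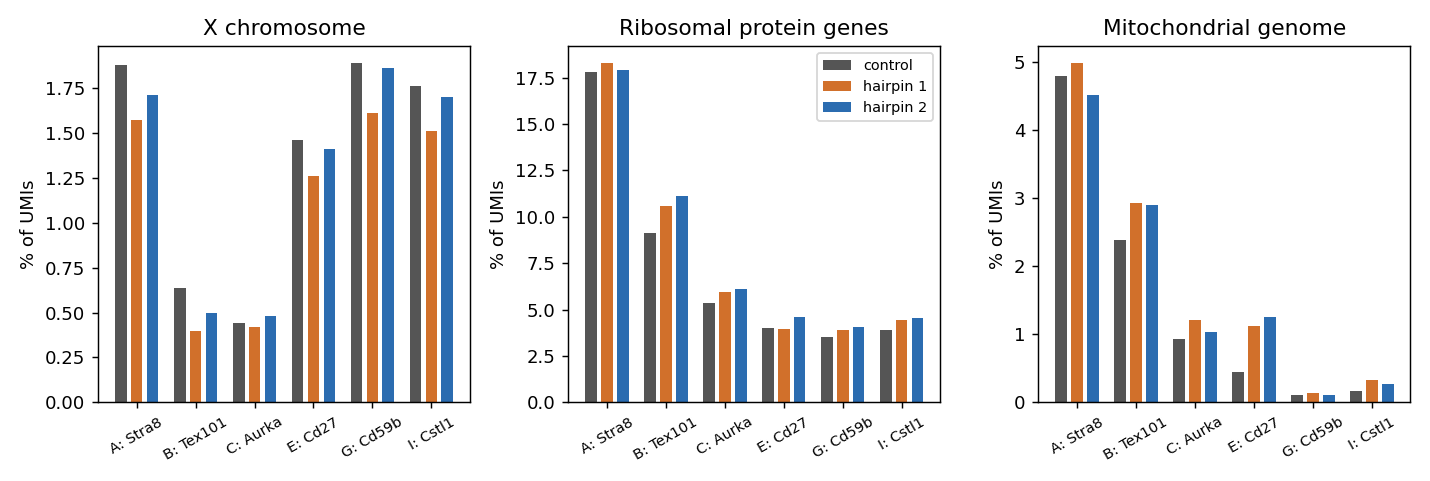
Percent of UMIs from the X chromosome, from ribosomal protein genes and from the mitochondrial genome in the cells of 6 trios, one bar per library. The X share was 1.57% to 1.88% in the Stra8 cells (A), 0.397% to 0.636% in the Tex101 cells (B) and 0.422% to 0.48% in the Aurka cells (C).

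The Stra8 cells spanned a range from spermatogonia to cells entering meiosis. They were ordered by the share of their UMIs from the 36 meiotic entry genes and cut into 5 quintiles of 67 or 68 cells, with median shares of 15.8, 20.8, 24.4, 29.6 and 47.2 UMIs per 10000. Genes outside that list took different courses along the order, and those shown were chosen after their values were seen. Stra8 stood at 355, 516, 646, 567 and 1698 CPM from quintile 1 to 5, so its height lay in the cells richest in meiotic RNA. Crabp1 stood at 301, 388, 391, 320 and 129 CPM and Dmrt1 at 263, 237, 246, 214 and 109. Stra8 was highest and both others lowest in quintile 5. The cells were chosen on the mean of the 3 genes, which ties their levels together, and these opposite levels are a description.

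Several genes of spermatogonia stood higher in quintile 1 than in quintile 5. The undifferentiated list summed to 656, 335, 307, 179 and 104 CPM over the quintiles. Zbtb16 (PLZF), a repressor that keeps spermatogonia undifferentiated, stood at 74.6 CPM in quintile 1 and 10.1 in quintile 5. Nanos3, an RNA-binding regulator of spermatogonia, stood at 34.2 and 2.53 CPM, Egr4 at 120 and 6.32, and the cyclin gene Ccnd2 at 154 and 10.1. Uchl1 stood at 764 and 168 CPM, Sohlh1 at 180 and 68.3, and Dnmt3b, a DNA methyltransferase that sets new methylation, at 72.8 and 25.3. Kit, the receptor that marks differentiating spermatogonia, kept to a narrower range of 31.6 to 57.8 CPM over the 5 quintiles. Ccnd2, Uchl1, Sohlh1 and Kit are on the differentiating list. That list as a whole rose over the quintiles, at 2458, 2608, 2687, 2866 and 3407 CPM. On it Dazl stood at 653 CPM in quintile 1 and 1047 in quintile 5, and Dmrtb1 at 178 and 315.

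Other genes were highest in quintile 5, among them Prss50 and Rhox13 of the differentiating list. Prss50, a testis serine protease gene, stood at 12.6, 83.2, 124, 293 and 927 CPM. Tex101, a germ cell surface protein gene, stood at 129, 206, 210, 461 and 1104, and Ly6k, of a related family, at 8.99, 62.4, 68.4, 130 and 469. Sycp3, of the axis of meiotic chromosomes, stood at 137 CPM in quintile 1 and 612 in quintile 5, and Rhox13 at 69.2 and 350. These 5 genes stood higher at each step of the order. Of them Tex101 and Sycp3 belong to the trio of the Tex101 cells in the rule, so their rise is a description. Cell cycle genes took several courses along the order. The DNA replication list summed to 2743, 3310, 3382, 3817 and 4045 CPM, and the mitosis list to 2391, 2481, 2764, 3079 and 2492. Ccnb1, the cyclin of mitotic entry, stood at 204 CPM in quintile 1 and 109 in quintile 5. Top2a, the topoisomerase of dividing cells, stood at 134 and 460 CPM, and Cdk1, the kinase partner of Ccnb1, at 38.6 and 64.5, with 89.3 in quintile 4. H2-D1, an MHC class I gene, stood at 53, 44.7, 23.1 and 22.6 CPM and then at 214 in quintile 5.

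**Figure D4:**
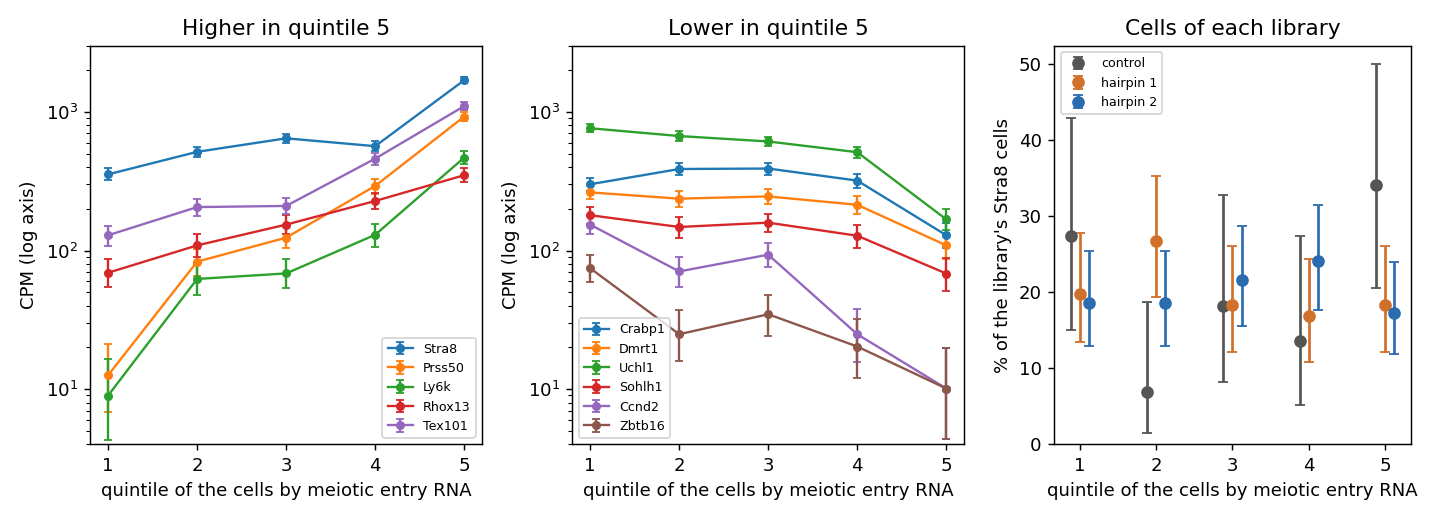
Left and middle, CPM (log axis) of 11 genes in the 337 Stra8 cells cut into 5 quintiles by the share of meiotic entry RNA, all libraries together, with 95% Poisson intervals. Right, percent of the Stra8 cells of each library in each quintile, with Clopper-Pearson intervals. Stra8 went from 355 to 1698 CPM and Crabp1 from 301 to 129, and quintile 5 held 34.1% of the control cells and 18.3% and 17.3% with the hairpins.

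The libraries were spread unevenly over this order. Quintile 5 held 15 of 44 control cells (34.1%, 20.5 to 49.9), 24 of 131 with hairpin 1 (18.3%, 12.1 to 26.0) and 28 of 162 with hairpin 2 (17.3%, 11.8 to 24.0), and the intervals overlapped. Quintile 1 held 12, 26 and 30 cells, which was 27.3%, 19.8% (13.4 to 27.7) and 18.5% (12.9 to 25.4), so the control was also highest there, with an interval that held both other shares. Quintile 2 held 3 control cells (6.82%) against 26.7% and 18.5% with the hairpins. The per-cell share of meiotic entry RNA had nearly the same middle and ends in the libraries, with medians of 26.3, 23.5 and 24.7 per 10000 and ranges of 10.1 to 96.4, 8.88 to 94.7 and 8.06 to 96.0. Within quintile 5 Stra8 stood at 2349, 1999 and 1118 CPM in the control, hairpin 1 and hairpin 2 cells. In quintile 1 it stood at 571, 453 and 191 CPM. In quintile 3 hairpin 1 was above the control, at 848 against 810 CPM with 8 control cells. Without the 67 cells of quintile 5, Stra8 was at 719, 562 and 433 CPM, in the same order of libraries.

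Single cells were also split by their Stra8 UMIs. Stra8 is a gene of the rule, so a member without a Stra8 UMI was kept through Crabp1 or Dmrt1, and the split is a description. Thinned to 10000 UMIs, 59 cells had no Stra8 UMI, 130 had 1 to 9 and 76 had 10 or more. The last set held 18 of 39 control cells, 29 of 96 with hairpin 1 and 29 of 130 with hairpin 2. Library and Stra8 level were thus mixed in this split. Of 27 meiotic entry genes detected in at least 10% of the cells, 26 were detected in more of the cells with 10 or more Stra8 UMIs than of those with none. Over all 13 lists, these 27 genes included, this held for 114 of 180 genes, and the share over all genes was not counted. Prdm9 was detected in 1.69%, 9.23% and 25.0% of the 3 sets of cells, Hsf2bp, a partner of BRCA2 in meiotic recombination, in 15.3%, 13.8% and 43.4%, and Dmc1, the meiotic recombinase, in 11.9%, 26.2% and 39.5%. Of the mitosis list 8 of 22 were higher with 10 or more. Cenpa was detected in 74.6%, 83.8% and 52.6%, and Ccnd1, a cyclin of the mitotic cycle, in 72.9%, 58.5% and 36.8%. The undifferentiated list was evenly split: of its 6 genes detected in at least 10% of the cells, 3 were higher with 10 or more and 3 lower. Zbtb16, at 30.5%, 28.5% and 13.2%, was lower, as were Foxo1 and Egr4, while Lin28a, Sall4 and Sox3 were higher. The exception on the meiotic entry list was Mns1, at 72.9%, 66.9% and 68.4%.

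Between the libraries, few genes of the Stra8 cells were 2-fold or more away from the control with each of the 2 hairpins: 193 of 8930 (2.16%) higher and 66 (0.739%) lower. The hairpins share the 1 control library, whose 44 cells set both folds, and the median log2 fold over all genes was -0.01 and 0.01. Among the 193 higher genes 147 had under 10 UMIs in the control and 131 had a higher level in the other cells of the testis. For the 66 lower genes these counts were 0 and 10. Neither share was counted over all 8930 genes, so no excess is read from them. The counting intervals of both ratios excluded equality for 120 of the 193 and 60 of the 66. These genes were picked by the same folds, so that is a description and not a test. The counts of 193 and 66 turned on the level of the gene. With genes of at least 30 CPM they were 43 and 16. With a pseudocount of 5 CPM in place of 1 they were 90 and 30.

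A few cells held most UMIs of 2 of the 12 highest ranked genes, and for 6 of the 193 higher genes 2 cells held at least 50% of the UMIs in a hairpin library. A330032B11Rik stood at 0, 86 and 62 UMIs, but with hairpin 1 its UMIs came from 2 of 131 cells. With hairpin 2 they came from 7 of 162 cells, 2 of which held 37. Jchain, the joining chain of secreted antibodies, stood at 0, 18 and 1814 UMIs, of which 2 cells with hairpin 2 held 1667. Those cells had 1304 and 363 Jchain UMIs among 13857 and 11958 in all. Without them hairpin 2 stood at 63.5 CPM. At least 1 Jchain UMI was seen in 0%, 13.0% and 59.3% of the Stra8 cells at median depths of 14362, 13081 and 12955, and in 2.67%, 21.1% and 72.5% of the Cstl1 and Klk1b3 spermatids at 20836, 16550.5 and 18933, which make no antibody. After thinning to 10000 UMIs the shares were 0%, 10.4% and 48.5% of Stra8 cells (39.6 to 57.4 with hairpin 2), against 1.06%, 11.8% and 42.7% of those spermatids. In this thinned form the Stra8 cells with hairpin 2 were above the spermatids, by less than the width of the interval. B and plasma cell markers, 9 of 12 in the table, summed to 38.6, 83.5 and 899 CPM in the Stra8 cells, and their part in other genes was not tested.

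Other genes of the 12 were spread over many cells. Slc2a3, the glucose transporter GLUT3, had 0, 35 and 48 UMIs in 0, 30 and 44 cells, with at most 2 in a cell, and stood at least 4.44-fold and 4.61-fold higher against a floor of 3 UMIs in the control. Other cells held 66.7 to 109 CPM of it. Tpm3-rs7 had 1, 66 and 84 UMIs, in 1, 52 and 61 cells, but is a tropomyosin copy whose reads may be shared with its parent gene. Its ratio was 25.1 (4.35 to 1006) and 24.2 (4.22 to 966), which the single control UMI leaves wide. All other cells had a difference of this kind too, at 0.705, 16.5 and 15.8 CPM. Sox11, a developmental transcription factor, stood at 2.97, 19.2 and 17.5 CPM and was near 0 in other cells (0 to 0.118 CPM). Atp6v1e2, a proton pump subunit gene of the testis, stood at 4.45, 37.2 and 43.1 CPM in Stra8 cells and at 18.4, 113 and 119 in all other cells. The rest were Dok1, Iqch, Ccdc83, Abcc1, Vnn1 and Prss21, with 2 to 4 control UMIs, apart from Dok1 with 1.

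The 12 lower genes were better covered in the control, with 15 to 113 UMIs. Beside Gm4665 they were Primpol, Gm28578, Zmynd11, Cst9, Mdk, Pdlim5, Gm9493, Slc39a10, Lin9, 1700019B21Rik and D730003I15Rik. 1700019B21Rik stood at 154 (126 to 187), 62.0 (51.0 to 74.8) and 58.9 (49.5 to 69.6) CPM and was detected in 56.8%, 30.5% and 35.8% of the cells. Mdk, the growth factor midkine, stood at 50.4, 18.0 and 13.7 CPM, which was 2.79 (1.67 to 4.68) and 3.69 (2.21 to 6.18) times lower. Primpol, a primase that restarts stalled replication, stood at 22.3, 6.77 and 5.98 CPM. Gm28578 had 113, 105 and 3 UMIs, but 112 of those in the control came from 1 cell. Cst9, a Sertoli cell gene, stood at 29.7, 7.33 and 10.3 CPM, where the 15 Sertoli markers summed to 202, 119 and 189.

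Most genes of the meiotic entry list stood below the control. Of its 29 compared members 26 were below the control with both hairpins, where 39.2% of all genes were, and 2 were above, where 39.7% of all genes were. Their median log2 fold was -0.64 and -0.50, against -0.01 and 0.01 over all genes. Prdm9 (2.48 and 3.47 times lower), Ccdc36, Hormad2 and Tex12 were at least 2-fold lower with both hairpins. Prdm9 stood at 50.4 CPM (34.9 to 70.5), 20.3 (14.2 to 28.1) and 14.5 (10.1 to 20.3). Hormad2, a meiotic chromosome axis protein, stood at 31.2, 13.0 and 14.9 CPM, Ccdc36 (IHO1), needed for meiotic DNA breaks, at 34.1, 13.5 and 14.5, and Tex12, of the central element of the synaptonemal complex, at 74.2, 32.7 and 31.2. Better covered members were nearer to the control: Syce2 stood at 635, 508 and 501 CPM, Smc1b, the meiotic cohesin subunit, at 429, 372 and 340, and Sycp1 at 334, 204 and 211. Ythdc2, a helicase that drives meiotic entry, was above, at 14.8, 20.3 and 24.8, as was Mns1, at 99.4, 129 and 144.

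Without the cells of quintile 5 the median of the list was -0.07 and -0.01, in a setting chosen after seeing the data. Taking away cells by the RNA of the list itself trims every library on that measure. It took 34.1% of the control cells, 18.3% with hairpin 1 and 17.3% with hairpin 2. How far the trimming alone moves the medians was not tested. The early prophase markers are 8 genes that include Tex101, Gml2 and Sycp3, the trio of the Tex101 cells. The rule set that trio against the Stra8 trio, so the choice of cells partly sets their levels here. The 8 genes, with Ly6k among them, had lower sums with the hairpins, which is a description. They summed to 1602, 769 and 851 CPM, and in the Tex101 cells of the control to 5104. The 6 compared members among them stood below the control with both hairpins, where 39.2% of all genes were. Prss50 from the differentiating list did too, at 509 (456 to 566), 200 (180 to 222) and 221 (202 to 241) CPM. Whether fewer Stra8 cells far along in meiotic entry or less of this RNA per cell underlies the sums cannot be told apart.

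**Figure D5:**
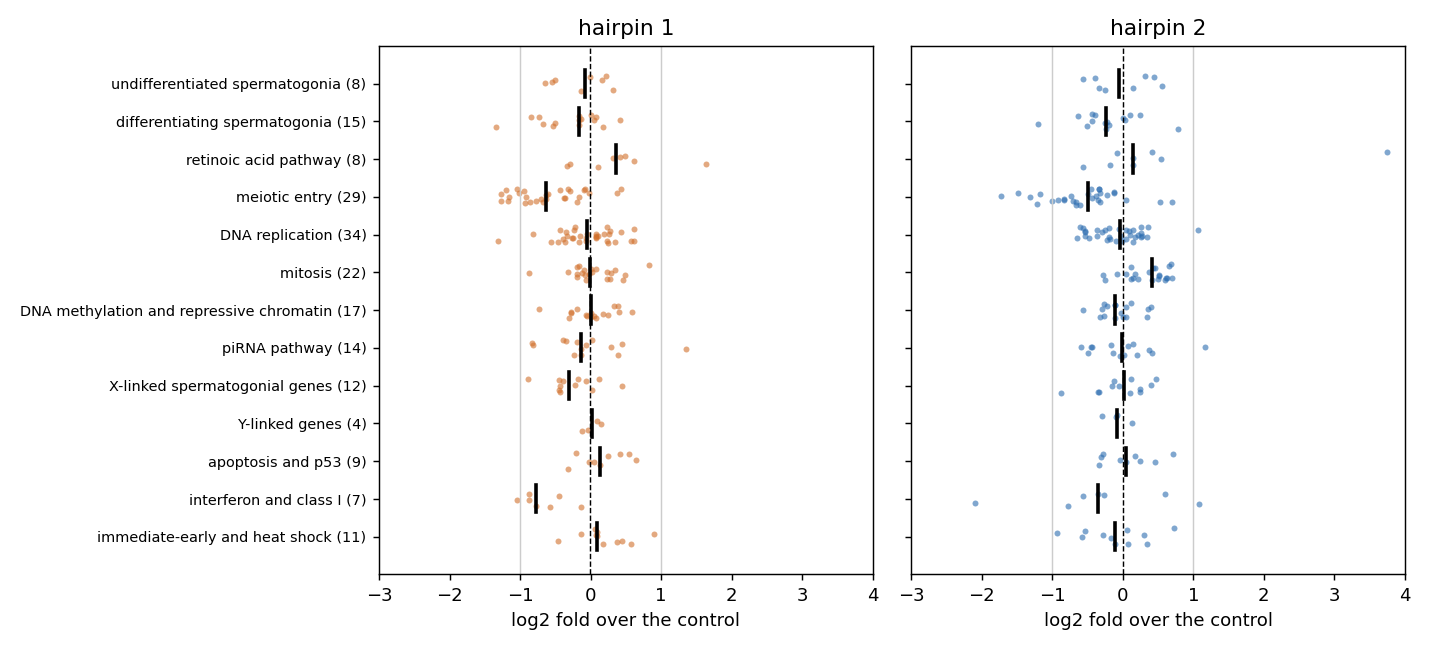
Log2 fold over the control for the compared members of 13 gene lists (points, numbers of genes in brackets) in the Stra8 cells with hairpin 1 and hairpin 2. Black bars are list medians, the dashed line is the median of all 8930 genes and grey lines mark 2-fold. The meiotic entry list lies lowest among lists of over 10 genes, with medians of -0.64 and -0.50.

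Lists of spermatogonial state stayed nearer to the control. Undifferentiated spermatogonia genes had 8 of 22 compared members and medians of -0.07 and -0.06. Zbtb16 stood at 47.5, 29.9 and 35.9 CPM, Sall4, a zinc finger factor of stem and progenitor cells, at 32.6, 40.6 and 44.8, and Foxo1 at 59.3, 68.8 and 65.3. Of the 8, 7 were at least 2-fold higher than in the Tex101 cells, where 25.5% of all genes were, and Id4 was lower, where 7.05% were. These 8 had passed a filter on their level in the Stra8 cells, which favours higher genes. Differentiating spermatogonia genes had 15 of 15 compared and medians of -0.16 and -0.24. Kit stood at 50.4, 45.1 and 42.7 CPM, the RNA-binding protein gene Dazl at 853, 763 and 869, and Dmrtb1 (DMRT6), which closes the mitotic programme, at 168, 223 and 288. None of these reached 2-fold with a hairpin, and Prss50 was the only member of the list that did so with both.

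Of 21 retinoic acid pathway genes beside the trio, 8 were compared. The receptors Rara and Rxrb stood at 13.4, 16.9 and 14.9 CPM and 22.3, 29.9 and 24.8 CPM, and Rbp4, a retinol carrier, at 116, 91.9 and 102 against 1.26 to 2.41 in all other cells. Aldh1a2, which makes retinoic acid, stood at 22.3, 18.0 and 20.9 CPM. Aldh1a3, a second such enzyme, was the 1 member over 2-fold with both hairpins, at 2.97, 11.3 and 52.5 CPM. Of its 123 UMIs with hairpin 2, however, 101 came from 1 cell. The list medians were 0.37 and 0.15, and with only genes of at least 30 CPM they were -0.11 and -0.37, so the list had no settled direction.

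The cell cycle lists had high levels and small differences, apart from the mitosis list with hairpin 2. DNA replication genes, 34 of 35 compared, had medians of -0.05 and -0.04, with 0 past 2-fold with both hairpins, where 2.16% of all genes were higher and 0.739% lower. Of the 34, 26 were at least 2-fold higher than in all other cells, where 45.3% of all genes were. Hells, a chromatin remodeller, stood at 473, 604 and 534 CPM, Lig1, the replicative ligase, at 239, 205 and 171, and Pcna, the replication clamp, at 62.3, 60.4 and 72.6. Mitosis genes, 22 of 22 compared, had medians of -0.01 and 0.42, and 0 reached 2-fold with both. Of the 22, 11 were above the control with both hairpins and 3 below, where 39.7% and 39.2% of all genes were. They summed to 2270 (2157 to 2386), 2358 (2287 to 2431) and 2947 (2878 to 3017) CPM. With hairpin 2 Cenpa stood at 350 CPM against 217 in the control and 219 with hairpin 1, and Ube2c, of the machinery that ends mitosis, at 228 against 150 and 142. Genes of DNA methylation and repressive chromatin, 17 of 20 compared, had medians of 0.01 and -0.11, with Dnmt1, the maintenance methyltransferase, at 101, 101 and 82.0 CPM.

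The remaining lists had few members past 2-fold with both hairpins, as had all genes (2.16% higher and 0.739% lower). Of 14 compared piRNA genes, with medians of -0.14 and -0.01, Tdrd6 alone was over 2-fold with both hairpins, at 13.4, 35.5 and 31.2 CPM. Spermatids are its main site, and other cells held 46.3 to 61.6 CPM. X-linked spermatogonial genes had medians of -0.32 and 0.02 and Y-linked genes 0.03 and -0.09. Apoptosis and p53 genes had medians of 0.13 and 0.04 with 9 of 18 compared, and Trp53 stood at 29.7, 46.8 and 49.1 CPM. Interferon and class I genes, 7 of 18 compared, had medians of -0.77 and -0.35. With no filter on level these were -0.14 and 0.51. With hairpin 2 the median was -0.66 without the pair of cells with most Jchain and 0.04 without quintile 5. H2-K1 stood at 136, 66.0 and 79.9 CPM. B2m, the partner chain of class I proteins, stood at 26.7, 14.1 and 57.7 CPM, where leukocyte RNA was also highest with hairpin 2. A UMI of 6 leukocyte genes was seen in 1, 6 and 23 Stra8 cells. Immediate-early and heat shock genes, 11 of 16 compared, had medians of 0.09 and -0.11, with Fos at 31.2, 42.9 and 52.1 CPM and Hspa8 at 1076, 778 and 739.

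Markers of other cells were mostly low. Macrophage markers summed to 28.2, 28.2 and 33.7 CPM, T and NK cell markers to 13.4, 20.9 and 17.1, and Leydig cell markers to 2.97, 1.13 and 0.854. Pachytene markers summed to 524, 753 and 866 CPM, against 1878 to 2466 in all other cells, and round spermatid markers to 412, 504 and 486. Endothelial markers summed to 46.0, 45.7 and 55.5 CPM, above the 11.6 to 12.6 of all other cells. Only 1 of these 6 genes passed the filter on level, and it was at least 2-fold above other cells in all 3 libraries.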

How the data were processed

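The authors deposited natural log values: a gene's UMIs were divided by those of its cell, multiplied by 10000, raised by 1 and logged. The submitters' processing notes name mm10, Cell Ranger 1.3.1 and Seurat 2.0.0. No source used here gives the cell filters or the strand counted. Column names ending in 1 and 2 were matched to hairpins 1 and 2 by that digit alone, and if this were wrong their values would change places.

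A cell's smallest value above 0 was taken as 1 UMI, and 100.0% of 20140203 values above 0 then came out whole within 0.01. UMIs were summed over the Stra8 cells of each library and scaled to CPM. Levels are not compared between genes. Genes with a mean of at least 10 CPM and 30 UMIs were compared, folds used a pseudocount of 1 CPM, and genes 2-fold or more away from the control with each hairpin were counted. With 1 library per group no count model or other test was run.

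Genes named were the trio, Gm4665 and Osbpl10, the first 15 higher than in other cells, the first 10 per direction against Tex101 cells, the first 12 per direction between libraries by the smaller fold, and the 4 most abundant and all 2-fold members of the lists, of which some are not printed. Others, among them Kit, Aldh1a2, B2m, Trp53, Mns1 and the genes shown by quintile, were chosen after their values were seen. The members and lists were chosen with earlier results of these data known.

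Positions came from GENCODE vM21 (95.7% of symbols found). Python 3.11.15, numpy 2.4.6, pandas 2.3.3, scipy 1.17.1 and matplotlib 3.10.9 were used, and the steps were tested on simulated data. Alternatives covered the pseudocount, the filter, the scaling, the choice of cells and thinning.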

Additional observations from a re-analysis of the deposited data

How the results depend on the processing

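Of 374 alternative values, 354 stayed within the spread set for them (for counts of genes, 1.5 times) and 20 moved beyond it. However, 26 of 286 alternative list medians had the other sign, 5 of them for medians at least 0.1 from 0. These were the retinoic acid medians of -0.11 and -0.37 with at least 30 CPM, the hairpin 2 interferon median of 0.51 with no filter and 0.04 without quintile 5, and the immediate-early and heat shock median of 0.06 with hairpin 2 and only cells with a Stra8 UMI. The 193 higher and 66 lower genes became 90 and 30 with a pseudocount of 5 CPM, 43 and 16 with a mean of at least 30 CPM, and 1086 and 738 with no filter on level. They were 275 and 76 without quintile 5 and 200 and 66 without the 2 cells of at least 100 Jchain UMIs, both chosen after seeing the data. Without quintile 5, the meiotic entry medians were -0.07 and -0.01, the mitosis median with hairpin 1 was -0.19, Stra8 stood at 719, 562 and 433 CPM, and the shares of Stra8 cells were 2.05%, 6.18% and 7.15%, lower by construction. Over all settings the meiotic entry medians ran from -0.68 to -0.07 and from -0.68 to -0.01. With only the cells that had a Stra8 UMI, the shares were 6.35% with hairpin 1 and 7.15% with hairpin 2, fewer cells by construction, and the undifferentiated median with hairpin 1 was 0.37 (-0.07 before), whose cause was not tested. With each cell scaled and then averaged, Stra8 with hairpin 1 was at 804 CPM. Thinned to 10000 UMIs, Stra8 was detected in 75.0% of the hairpin 1 cells. The 44 control cells limit every fold, since 3 UMIs there are 4.45 CPM. No paired analysis was possible because each group was 1 library.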
